A study of Mus musculus with 3 samples.

Results

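Basal epidermal cells outside the hair placode were compared between libraries sorted for MAdCAM-1 and a library sorted without that gate, in the dorsal skin epithelium of mouse embryos. The cells were chosen from their own counts, each value taken per 10000 unique molecular identifiers (UMIs, tags that mark single captured RNA molecules). A cell was kept when the placode genes Dkk4, Edar, Fgf20, Bmp2 and Ltb summed to less than 2, Sostdc1 was below 4, Krt15 was at least 8, and the suprabasal genes Krt1, Krt10 and Krtdap summed to less than 5 in the placode-enriched table or less than 20 in the total epithelium table. In all, 746 of 4683 cells met the rule. They were 94 of 1511 cells in placode-enriched library 1 (6.22%, exact binomial 95% interval 5.06 to 7.56), 123 of 1571 in placode-enriched library 2 (7.83%, 6.55 to 9.27) and 529 of 1601 in the total epithelium library (33.0%, 30.7 to 35.4). The gate and the rule set these shares, and they are given without a test.

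All embryos were wild type, strain C57BL/6JOlaHsd, at E14.5. Epithelium was parted from dermis with Dispase II, each sample pooled the sheets of 3 to 4 embryos of 1 litter, and a MAdCAM-1 antibody was used on the cells after release with TrypLE. The 2 placode-enriched libraries held live MAdCAM-1-positive cells, and the 1 total epithelium library held live cells of the whole epithelium. Libraries were made with 10x Chromium 3′ chemistry, version 2. Cells of the rule from the placode-enriched libraries are called gated basal cells here, and those from the total epithelium library ungated basal cells.

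The gate, the litter and the deposited table changed together between these libraries and cannot be told apart. The pooled embryos also differed in sex transcripts. Xist, the X-inactivation RNA, had 910.1 and 933 CPM (UMIs of a gene per 1000000 UMIs of the sum) in gated basal cells, against 0.0811 CPM (1 UMI) in ungated basal cells, and the Y-linked Eif2s3y had 7.96 and 11.6 CPM in gated cells, against 54.7 CPM in ungated cells. Genes on X and Y were therefore left out of every fit. Differences of the autosomal genes between the sexes were not tested.

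The basal layer is the epidermis's proliferating layer on the basement membrane. It is marked by the keratins Krt5, Krt14 and Krt15 and the transcription factor Trp63, and its cells leave upward into the suprabasal layers as they differentiate. Hair placodes arise in this layer where Wnt, ectodysplasin and Fgf signals are active, and placode cells secrete Shh, Bmps and the Wnt antagonist Dkk4. MAdCAM-1 is an addressin, known as a ligand of the lymphocyte integrin α4β7, and in embryonic skin it marks hair placodes.

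The gene that encodes the sorted protein, Madcam1, lies at chr10:79664559-79668537 (GRCm38, plus strand). Its promoter is shown because ectodysplasin acts through the factor NF-kB. The 250 bases before the gene start (RefSeq, GRCm38.p6, chr10:79664309-79664558, plus strand) are printed 5′ to 3′, with capitals marking the bases covered by matches to the NF-kB pattern GGGNNNNNCC on either strand.
Madcam1: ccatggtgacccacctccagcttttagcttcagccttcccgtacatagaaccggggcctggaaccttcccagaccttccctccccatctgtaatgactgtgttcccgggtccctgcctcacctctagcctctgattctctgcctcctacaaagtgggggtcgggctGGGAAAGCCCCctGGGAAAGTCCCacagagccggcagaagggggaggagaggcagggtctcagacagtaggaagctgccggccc
The pattern matched at 5 overlapping places within bases 167 to 177 and 180 to 190 of this window. Of 32851 promoter windows of the same length, 45.8% held at least 1 match, so the match describes these letters and not a site. The TCF pattern TCAAAG, searched on both strands, was not in the window and was in 13.8% of all windows.

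Madcam1 transcripts accompanied the gate in these cells although they were not part of the rule. The sum over gated basal cells was 21.7 and 17.6 CPM (60 and 64 UMIs; exact Poisson 95% intervals 16.6 to 27.9 and 13.6 to 22.5), against 1.30 CPM in ungated basal cells (16 UMIs; 0.741 to 2.11). Both gated values stood above the ungated one and their intervals did not overlap it, a log2 fold change of 3.96 ± 0.38 (SE), given without a test because the protein was the sorting antigen. Per cell, 29.8% (20.8 to 40.1) and 30.1% (22.1 to 39.0) of gated basal cells held a Madcam1 UMI, against 1.89% (0.910 to 3.45) of ungated basal cells. With every cell thinned to 10000 UMIs the shares were 15.1% and 13.0% in gated cells and 0.949% in ungated cells. Placode cells (the placode sum at 6 or more, under the same suprabasal limit; 428, 439 and 84 cells) carried more in every library, with 73.5 and 66.6 CPM in gated libraries and 28.9 CPM in the ungated library. Suprabasal cells (placode sum below 2 and suprabasal sum of at least 20 in the placode-enriched libraries or 40 in the total epithelium library; 31, 28 and 260 cells) were used to show the level that a cell type outside the sort's target holds; their limits were set after the data had been seen. They held 5.40 and 1.03 CPM in gated libraries and 0.770 CPM in the ungated library, and 16.1% and 3.57% of gated against 1.92% of ungated suprabasal cells had a Madcam1 UMI, at median depths of 28569, 32720 and 24246 UMIs.

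The 3 libraries had similar depth as a whole, at 34900788 and 38645840 UMIs in the placode-enriched libraries and 36924284 UMIs in total epithelium, with medians of 21652, 23419 and 21977 UMIs per cell. The basal cells did not: gated basal cells had medians of 29983 and 28526 UMIs, against 22178 UMIs in ungated basal cells. Their sums over cells were 2764572 and 3629674 UMIs in gated and 12336638 UMIs in ungated cells. Libraries shared 2 barcodes between both placode-enriched libraries and 1 between each of them and total epithelium. Scrublet, a doublet caller, marked 7, 2 and 9 cells, few for droplet data, so that doublets can remain.

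The values that chose the cells still differed inside the limits. The median placode sum was 0.69 and 0.54 per 10000 UMIs in gated basal cells and 0.36 in ungated basal cells. The suprabasal sum had medians of 1.10 and 0.92 in gated and 6.65 in ungated basal cells, and only 104 of the 529 ungated cells lay below the limit of 5 used for the gated cells. Krt15 had medians of 16.4 and 15.4 in gated cells and 24.6 in ungated cells, and Sostdc1 2.13 and 2.08 in gated cells and 1.93 in ungated cells. The library medians over all cells were 0.93 and 0.79 in the placode-enriched libraries and 7.11 in total epithelium for the suprabasal sum, a gap of the same kind in unselected cells. Sostdc1 alone kept out 275, 215 and 507 cells that passed the other limits. Krt15 alone kept out 83, 126 and 49, the placode sum 41, 27 and 65, and the suprabasal sum 7, 8 and 63. Within 20% of the Sostdc1 limit, 24, 22 and 96 cells lay inside and 24, 24 and 97 just outside. Within 20% of the placode limit, 7, 6 and 18 cells lay inside and 5, 7 and 12 outside; for Krt15 these were 15, 20 and 11 inside and 10, 10 and 12 outside, and for the suprabasal sum 2, 2 and 13 inside and 2, 0 and 5 outside.

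**Figure D1:**
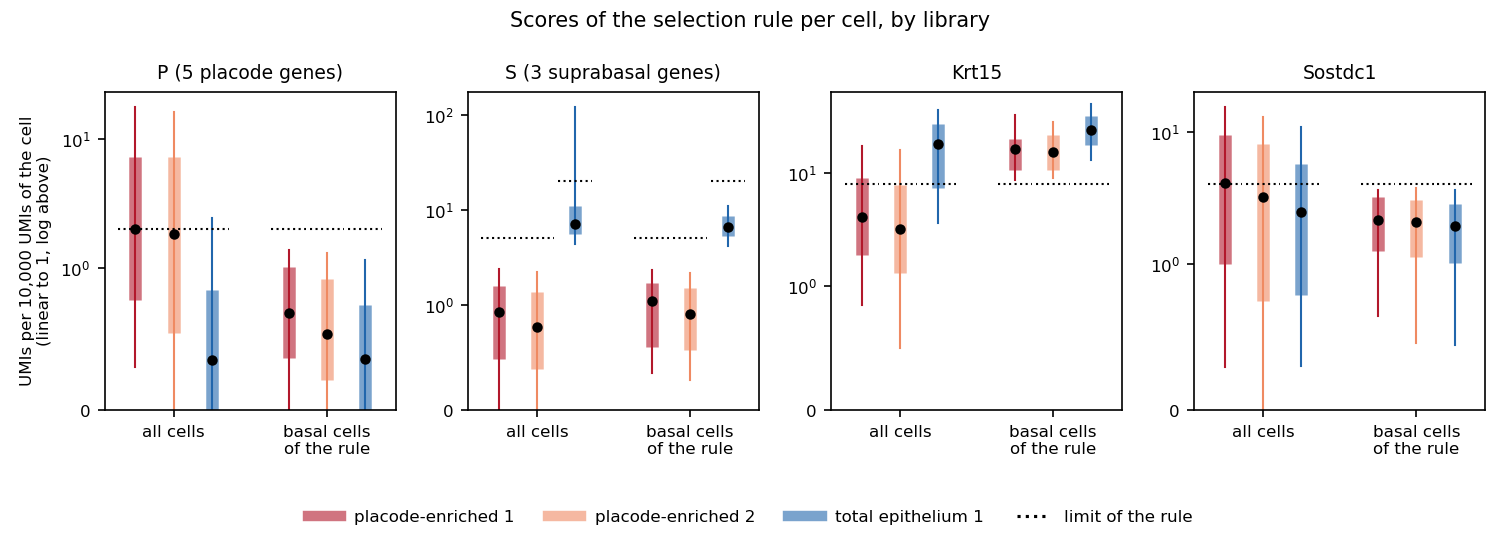
The 4 values of the cell rule in UMIs per 10000 (linear below 1, logarithmic above), for all cells and for the basal cells of the rule in placode-enriched libraries 1 and 2 and total epithelium; dots are medians, thick lines quartiles, thin lines the 10th to 90th percentiles and dotted lines the limits. The suprabasal sum of the basal cells has medians of 1.10 and 0.92 in the placode-enriched libraries and 6.65 in total epithelium.

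Of the genes inside the rule, Dkk4 summed to 22.4 and 12.9 CPM in gated and 6.97 CPM in ungated basal cells, and Ltb, a lymphotoxin of the TNF family, to 15.2 and 11.6 CPM in gated and 3.65 CPM in ungated cells. Edar, the ectodysplasin receptor, had 8.32 and 9.37 CPM in gated and 4.30 CPM in ungated cells. All 3 were higher in both gated libraries. Fgf20 and Bmp2 stood close together, with 3.26 and 3.31 CPM in gated and 3.49 CPM in ungated cells for Fgf20, and 23.5 and 24.2 CPM in gated and 25.9 CPM in ungated cells for Bmp2. These levels were small beside placode cells, where Dkk4 had 865 and 736 CPM in gated and 944 CPM in ungated libraries. Sostdc1, a secreted Bmp and Wnt antagonist, had 219 and 211 CPM in gated and 197 CPM in ungated cells, and Krt15 1835 and 1735 CPM in gated and 2630.0 CPM in ungated cells. Krtdap, a keratinocyte differentiation protein, had 31.8 and 44.4 CPM in gated cells, against 435 CPM in ungated cells, Krt10 65.1 and 52.9 CPM against 179.8 CPM, and Krt1 24.6 and 17.4 CPM against 107 CPM. These suprabasal genes were lower in both gated libraries, and no test was made on any gene of the rule.

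The basal label held on its markers. All 7 fixed basal markers had UMIs in all 3 libraries, and 0 of the 6 outside the rule passed in edgeR or in DESeq2 (2 and 1 at an unadjusted p under 0.05). Krt5, the basal type II keratin, had 1404 and 1376 CPM in gated and 1759 CPM in ungated cells, and its partner Krt14 2646 and 2524 CPM in gated and 3443 CPM in ungated cells. Trp63 had 255 and 233 CPM in gated and 234 CPM in ungated cells, and the hemidesmosome collagen Col17a1 71.98 and 67.2 CPM in gated and 68.01 CPM in ungated cells. Krt5 and Krt14 were somewhat lower in both gated libraries, and Trp63 and Col17a1 had gated values on either side of the ungated one. Itga6, the hemidesmosome integrin subunit, had 64.4 and 61.99 CPM in gated and 59.8 CPM in ungated basal cells. In suprabasal cells it had 6.48 and 9.24 CPM in gated and 7.86 CPM in ungated libraries. The 6 markers outside the rule parted these classes less as a set. They summed to 4484 and 4321 CPM in gated and 5611 CPM in ungated basal cells. In suprabasal cells they summed to 2892 and 2989 CPM in gated and 2111 CPM in ungated libraries.

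Markers of endothelium, blood and muscle were at or near 0, and those of melanoblasts were so in gated cells only. Those of fibroblasts, periderm and Schwann cells were not. The 6 melanoblast markers summed to 1.4 and 0.6 CPM in gated cells, with 3 and 5 of them at 0. In ungated cells they summed to 10.8 CPM, with 0 of them at 0. Pmel, the only member tested, was called lower, with 0.723 and 0 CPM in gated and 3.24 CPM in ungated cells. It could pass the filter through the ungated sum alone, so this call does not support a direction. Most of the ungated sum came from the members not tested. Endothelial, erythroid and muscle markers summed to at most 1.4 CPM in any library (1, 2 and 2 markers measured), and 0 of the 3 Merkel cell markers were in both tables. Of the immune markers, Fcer1g had 0 and 0.276 CPM in gated and 0.324 CPM in ungated cells, so Cd74, which rose (values further on), made up nearly all of that sum. The 2 autosomal Schwann markers summed to 15.9 and 13.8 CPM in gated cells and 11.6 CPM in ungated cells. The 6 fibroblast markers summed to 910.4 and 751 CPM in gated cells and 864 CPM in ungated cells, most of it Dcn (611 and 471 CPM in gated and 544 CPM in ungated cells), while the fibrillar collagen gene Col1a1 was at 0 and 0.551 CPM in gated and 0.0811 CPM in ungated cells, and the 3 tested members were not past the threshold. The 8 periderm markers summed to 602 and 597 CPM in gated and 871 CPM in ungated cells, mostly the shared keratinocyte gene Sfn. Of 6 tested, Sfn fell and 2 others rose, beside 2.77% and 4.23% of all genes. The rises were Krt8, low enough that it could pass the filter through the gated sums alone, and the tight junction gene Cldn6. Cldn6 had 23.5 and 25.9 CPM in gated and 14.4 CPM in ungated cells. Krt6a was at 0 in all 3 libraries.

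Across the genome, 432 of 10213 autosomal genes tested rose in gated basal cells (4.23%) and 283 fell (2.77%), at an adjusted p under 0.05 from edgeR's quasi-likelihood test with Benjamini-Hochberg adjustment. At least 2-fold differences were seen in 214 higher (2.1%) and 133 lower genes (1.3%). The median log2 fold change over all genes tested was 0.0020. The fit had 1 residual degree of freedom, so the lone ungated library was assumed to vary like the 2 gated ones, and a permutation of the 3 libraries cannot give a p below 0.333. Adjusted p-values below come from this fit. Its spread came from the 2 gated libraries and was shared across genes, so a p-value need not follow a gene's own spread. Gstp1, whose 2 gated values lay far apart, had an SE of 0.15 here and 1.28 in DESeq2. DESeq2 called 29 higher and 20 lower, with no adjusted p for 5544 genes, and with the suprabasal limit of 5 in both tables edgeR called 224 higher and 159 lower.

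The 12 genes with the largest rises at 10 CPM or more included Sox11, Tubb2b, Ifitm1, Cd74 and Etv4, after Madcam1, whose protein was the sorting antigen. Sox11, a SoxC transcription factor, had 14.47 and 12.9 CPM in gated and 3.97 CPM in ungated cells (1.84 ± 0.34 on the log2 scale, adjusted p = 6.4e-06). Ifitm1, an interferon-induced membrane protein, had 94.4 and 68.1 CPM in gated and 24.1 CPM in ungated cells (1.81 ± 0.16, adjusted p = 5e-26), and Cd74, the invariant chain of MHC class II, 37.3 and 35.5 CPM in gated and 11.3 CPM in ungated cells (1.75 ± 0.20, adjusted p = 2e-15). Both gated values lay above the ungated one for each. The neuronal-type tubulins rose likewise: Tubb2b had 34.7 and 31.7 CPM in gated and 9.89 CPM in ungated cells (1.81 ± 0.21), and Tuba1a 61.9 and 47.4 CPM in gated and 23.3 CPM in ungated cells (1.28 ± 0.17). The Fgf-responsive ETS factor Etv4 had 18.8 and 13.8 CPM in gated and 5.59 CPM in ungated cells (1.59 ± 0.29). Has3, a hyaluronan synthase, had 15.6 and 13.5 CPM in gated and 5.19 CPM in ungated cells (1.54 ± 0.31). Krt17, a keratin of skin appendages and periderm, had 267 and 307 CPM in gated and 128 CPM in ungated cells (1.23 ± 0.13, adjusted p = 1.9e-17), and the kinetochore protein gene Cenpf 269 and 285 CPM in gated and 123 CPM in ungated cells (1.24 ± 0.13). The histone genes Hist1h1a (1.32 ± 0.25) and Hist1h4d (1.31 ± 0.18) closed the 12, with values that near-identical histone copies make uncertain. With cells thinned to 10000 UMIs, Sox11 (1.65), Has3 (1.65) and Hist1h1a (1.04) kept the direction and missed the threshold.

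The 12 genes with the largest falls at 10 CPM or more included Gstp1, Sbsn, Mgst1, Smtnl2 and Dmkn. Gstp1, a glutathione S-transferase with near-identical copies, had 65.1 and 20.1 CPM in gated cells, against 129.9 CPM in ungated cells (-1.60 ± 0.15, adjusted p = 1.5e-24). The 2 gated libraries lay far apart for it, its adjusted p was 0.998 in DESeq2, and the log2 value was -2.60 without placode-enriched library 1 and -0.95 without library 2. Hist1h2ap, a histone H2A gene, split the same way, with 595 and 264 CPM in gated and 1061 CPM in ungated cells, values of -1.91 and -0.79 without library 1 or 2, and an adjusted p of 0.998 in DESeq2. Mgst1, a microsomal glutathione S-transferase, had 37.3 and 30.3 CPM in gated and 93.5 CPM in ungated cells (-1.41 ± 0.15). The secreted epidermal proteins Dmkn (213 and 188 CPM in gated and 542 CPM in ungated cells; -1.37 ± 0.12, adjusted p = 4.7e-25) and Sbsn (9.40 and 12.9 CPM in gated and 34.7 CPM in ungated cells; -1.54 ± 0.21) are known from suprabasal layers. Hspb1, a small heat shock protein, had 65.5 and 68.6 CPM in gated and 177 CPM in ungated cells (-1.33 ± 0.14), the phospholipid-binding annexin Anxa1 90.4 and 103 CPM in gated and 245 CPM in ungated cells (-1.26 ± 0.13), and the water and glycerol channel Aqp3 29.7 and 34.99 CPM in gated and 76.8 CPM in ungated cells (-1.17 ± 0.15). Both gated values were below the ungated one for each. The other falls were Smtnl2 (-1.38 ± 0.23), the lysosomal protease Ctsc (-1.26 ± 0.22), the mitochondrial creatine kinase Ckmt1 (-1.18 ± 0.17) and the antiproliferative Tob1 (-1.17 ± 0.24). Ctsc missed the threshold with thinned cells (-1.04, adjusted p = 0.051). Ctsc and Tob1 missed it among cells with few late cycle UMIs (adjusted p = 0.083 and 0.13), and Ckmt1 missed it in DESeq2 (adjusted p = 0.061). Smtnl2 was the 1 of the 24 named genes to lose its call with the suprabasal limit of 5 in both tables (-0.49, adjusted p = 0.56). In DESeq2, 12 of the 24 named genes kept their call, and 3 (Gstp1, Hist1h2ap and Ckmt1) missed it. The others had no adjusted p there, among them Sox11, Etv4, Has3, Hist1h1a and Sbsn.

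**Figure D2:**
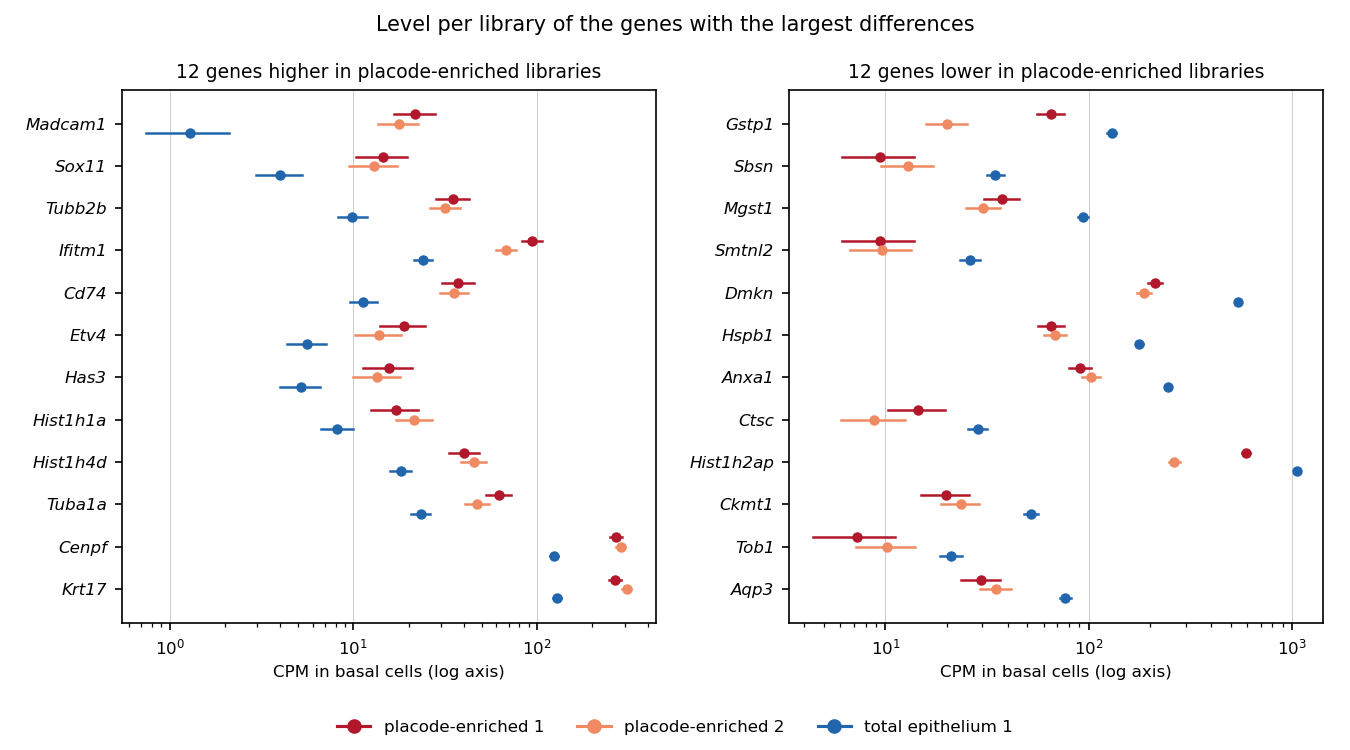
Level in CPM (log axis) of the 12 higher and 12 lower genes of the naming rule in the basal cells of placode-enriched libraries 1 and 2 and of total epithelium; bars are exact Poisson 95% intervals, which cover counting error only. Both placode-enriched points stand to 1 side of the total epithelium point in all 24 genes, which the rule required; Gstp1 and Hist1h2ap show the widest gaps between the 2 placode-enriched points.

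Placode genes outside the rule were higher in gated basal cells. Of 27 on the list, 26 were in both tables and 19 passed the filter on low counts; 12 rose and 0 fell, against 4.23% of all genes tested that rose, with a median of 1.21. Cells were chosen by other placode genes and low genes could pass the filter through the gated sums alone, so these counts describe the list and do not support its direction. With the suprabasal limit of 5 in both tables, 7 of 18 tested members rose, 4 of 12 did with thinned cells, and 1 of 19 did in DESeq2, which gave no adjusted p for 14 of them. Dusp6, a phosphatase that dampens Fgf signalling, had 64.02 and 57.6 CPM in gated and 31.2 CPM in ungated cells (1.03 ± 0.16, adjusted p = 1.1e-08). Socs2, a suppressor of cytokine signalling, had 36.5 and 27 CPM in gated and 14.2 CPM in ungated cells (1.21 ± 0.20, adjusted p = 1.8e-07). The follicle-associated genes at lower levels, named after their values were seen, were the Wnt antagonist Wif1 (9.40 and 7.16 CPM in gated and 1.46 CPM in ungated cells; 2.54 ± 0.50), the zinc finger factor Trps1 (9.40 and 9.09 CPM in gated and 1.78 CPM in ungated cells; 2.43 ± 0.46) and Shh (4.70 and 2.76 CPM in gated and 0.730 CPM in ungated cells; 2.35 ± 0.77, adjusted p = 0.038). All 3 lay above the ungated value in both gated libraries. The others that rose were Etv4, Sox11, the semaphorin receptor Nrp2, the receptor Fgfr1, the matrix protein Frem1 and the secreted factors Pthlh and Bdnf, at log2 values from 1.09 (Fgfr1) to 2.65 (Nrp2). Among those that did not pass, the ligand gene Wnt10b had 19.9 and 11.02 CPM in gated and 12.5 CPM in ungated cells, and the activin antagonist Fst 117 and 142 CPM in gated and 137 CPM in ungated cells, and the ranges overlapped for both genes.

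For all 12 of these placode genes, suprabasal cells of both gated libraries also had a higher level than suprabasal cells of the ungated library (no test), and placode cells had the highest. Placode cells were 428 of 1511 and 439 of 1571 cells in the placode-enriched libraries and 84 of 1601 in total epithelium. Gated basal cells held 2.46% to 28.4% of the level in placode cells of the same library and ungated basal cells 1.11% to 26.1%, and the 12 were lower in basal than placode cells in every library. Set against suprabasal cells of the gated libraries, 1 of the 12, Socs2, had a basal interval above the suprabasal one in both libraries, and 0 had it below in both. Wif1 had 10.8 and 6.16 CPM in gated and 0.616 CPM in ungated suprabasal cells, and Trps1 9.72 and 14.4 CPM in gated and 2.77 CPM in ungated suprabasal cells, and for both genes these intervals overlapped the basal ones of the same library. A Wif1 UMI was present in 24.5% and 16.3% of gated and 3.40% of ungated basal cells, against 29.0% and 21.4% of gated and 1.54% of ungated suprabasal cells. Thinned to 10000 UMIs, the shares were 9.68% and 4.88% of gated and 1.71% of ungated basal cells, against 9.68% and 3.57% of gated and 0.797% of ungated suprabasal cells. A Sox11 UMI was present in 28.7% and 26.8% of gated and 6.99% of ungated basal cells, against 35.5% and 32.1% of gated and 9.62% of ungated suprabasal cells; thinned, they were 15.1% and 13.0% of gated and 2.85% of ungated basal cells, against 16.1% and 17.9% of gated and 4.38% of ungated suprabasal cells. For both genes the gated basal shares were not above the suprabasal ones beyond counting error. Free RNA in the droplets was not measured, and its part in these differences was not tested. Socs2 had 7.56 and 10.3 CPM in gated and 3.54 CPM in ungated suprabasal cells. Of the 12 genes with the largest rises, Madcam1 and Cd74 stood above suprabasal cells in both gated libraries by their intervals, and Tubb2b, Tuba1a and Krt17 below. A Cd74 UMI was present in 55.3% and 48.0% of gated and 15.9% of ungated basal cells, against 25.8% and 10.7% of gated and 5.38% of ungated suprabasal cells. Thinned, these were 29.0% and 28.5% of gated and 7.59% of ungated basal cells, against 6.45% and 7.14% of gated and 2.39% of ungated suprabasal cells.

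**Figure D3:**
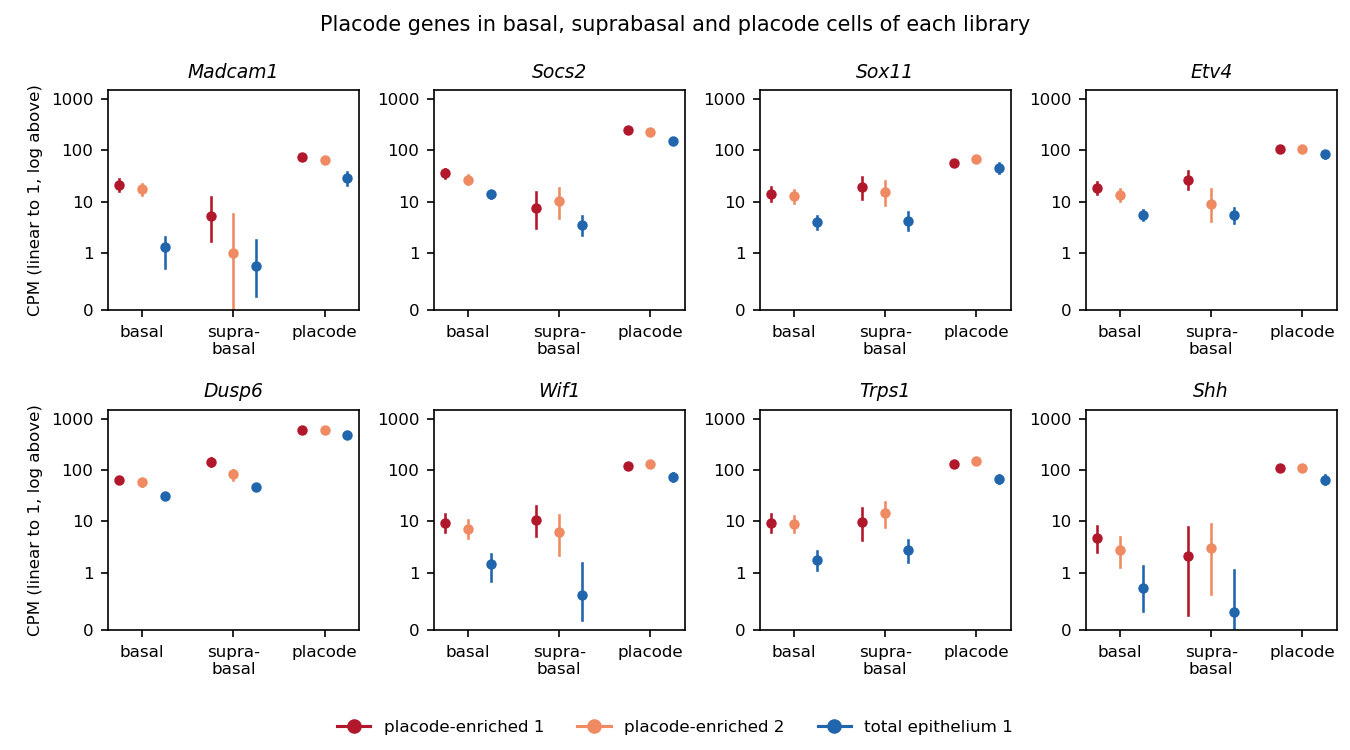
Level in CPM (linear below 1, logarithmic above) of Madcam1, Socs2, Sox11, Etv4, Dusp6, Wif1, Trps1 and Shh in basal, suprabasal and placode cells of placode-enriched libraries 1 and 2 and of total epithelium, with exact Poisson 95% intervals (counting error only). Placode cells carry the highest levels in every library; in the placode-enriched libraries Madcam1 and Socs2 are higher in basal than suprabasal cells, while the intervals of Wif1, Trps1 and Shh overlap between the 2 classes.

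Hedgehog genes were higher in small number. Of 12 tested, 3 rose, against 4.23% of all genes tested, and 0 fell (median 0.51). Shh is also counted in the placode list. Low genes such as Shh could pass the filter through the gated sums alone, so this count does not support a direction. With the suprabasal limit of 5 in both tables the number that rose was 2, and in DESeq2 it was 0, with no adjusted p for 9 (2 at an unadjusted p under 0.05). Beside Shh, the signal transducer Smo had 30.7 and 27 CPM in gated and 18.4 CPM in ungated cells (0.71 ± 0.19, adjusted p = 0.0071), above the ungated value in both gated libraries. In the Fgf list 3 of 10 tested genes rose (1 in DESeq2), against 4.23% of all genes, and 0 fell. Those that rose, Etv4, Dusp6 and the receptor Fgfr1, are also counted in the placode list. The feedback inhibitor Spry2 had 15.6 and 12.1 CPM in gated and 14.8 CPM in ungated cells. Of 18 tested Sox and hair fate factors, 6 rose, against 4.23% of all genes, and 0 fell. With thinned cells 2 of 14 rose, and 1 of 18 did in DESeq2. Members such as Trps1 are also counted in the placode list. Low members could pass the filter through the gated sums alone, so this count does not support a direction. Sox4, the other SoxC factor, had 394 and 368 CPM in gated and 226 CPM in ungated cells (0.82 ± 0.13, adjusted p = 8.9e-08), Nfib 377 and 422 CPM in gated and 298 CPM in ungated cells, and Tfap2b 294 and 315 CPM in gated and 226 CPM in ungated cells. Sox9, the factor of hair follicle stem cell precursors, was named after its values were seen: 8.68 and 15.4 CPM in gated and 3.65 CPM in ungated cells (1.83 ± 0.35). A Sox9 UMI was present in 15.96% and 30.9% of gated and 8.13% of ungated basal cells, below the 67.7% and 50% of gated and 17.7% of ungated suprabasal cells. In placode cells the Sox9 share was 24.5% and 28.5% in gated libraries and 27.4% in the ungated library.

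Few Wnt, ectodysplasin, Bmp and Notch genes passed the test. Of 14 tested Wnt feedback genes, 2 rose and 1 fell, beside 4.23% and 2.77% of all genes (0 and 0 in DESeq2, 3 at an unadjusted p under 0.05). The receptor Fzd10 had 153 and 141 CPM in gated and 114 CPM in ungated cells (0.44 ± 0.13), and Myc 34.4 and 27.8 CPM in gated and 62.9 CPM in ungated cells (-0.96 ± 0.16, adjusted p = 1.8e-07). Wif1, also counted in the placode list, was the other rise and could pass the filter through the gated sums alone. Axin2, the general Wnt feedback gene, had 31.8 and 25.3 CPM in gated and 24.1 CPM in ungated cells (0.30 ± 0.19, adjusted p = 0.39). Among 10 tested genes for Wnt ligands and their export 1 fell, against 2.77% of all genes, and 0 rose. It was Wnt10a, with 57.2 and 53.7 CPM in gated and 80.4 CPM in ungated cells. This call was lost with the suprabasal limit of 5 in both tables, with thinned cells, among cells with few late cycle UMIs and in DESeq2. In the ectodysplasin and NF-kB list of 14 tested genes, Madcam1 alone was past the threshold. Its protein was the sorting antigen, so that call is not a result about the list. Among 20 Bmp and Tgfb genes 1 rose, a share near the 4.23% of all genes, the activin receptor Acvr2b, with 19.5 and 21.2 CPM in gated and 12.7 CPM in ungated cells. Its call was lost under the same alternatives. For Notch, 0 of 11 tested genes passed in edgeR and 0 in DESeq2 (3 and 0 at an unadjusted p under 0.05), with a median of 0.05; with the suprabasal limit of 5 in both tables, 2 of 10 rose.

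Late cell cycle genes were higher in gated basal cells, and their sum was also higher in gated placode and suprabasal cells. Of 24 genes of mitosis and its entry, 15 rose, against 4.23% of all genes, and 0 fell in edgeR (median 0.54), 5 rose in DESeq2, and their sum was 4191 and 3829 CPM in gated cells, against 2752 CPM in ungated cells. The proliferation antigen Mki67 had 175 and 185 CPM in gated and 85.6 CPM in ungated cells (1.14 ± 0.14, adjusted p = 5e-14), the centromere motor Cenpe 133 and 118 CPM in gated and 66.4 CPM in ungated cells (0.98 ± 0.14), and the ubiquitin-conjugating enzyme Ube2c 508 and 487 CPM in gated and 275 CPM in ungated cells (0.92 ± 0.13). Each was above the ungated value in both gated libraries. The share of cells with at least 15 UMIs per 10000 of these genes was 68.1% and 64.2% of gated and 50.5% of ungated basal cells. After thinning to 10000 UMIs it was 71.0% and 64.2% of gated and 50.9% of ungated basal cells. In placode cells the same sum was 3401 and 3002 CPM in gated libraries and 1999.8 CPM in the ungated library. In suprabasal cells it was 5277 and 4736 CPM in gated libraries and 3112 CPM in the ungated library. A fit of basal and placode cells together, described further on, gave 0 of these 24 genes a higher and 2 a lower change in basal cells. Those shares stood beside 1.04% and 0.279% of all genes in that fit, with a median of -0.14 for the list. Replication genes did not follow: of 31 tested, 0 rose and 2 fell, beside 4.23% and 2.77% of all genes. Mcm4 of the replicative helicase fell (90.4 and 77.4 CPM in gated and 125 CPM in ungated cells). The histone mRNA-binding Slbp also fell (184 and 178 CPM in gated and 260.1 CPM in ungated cells). The comparison was also restricted to cells below 15 UMIs per 10000 of the late cycle genes. It then held 30 and 44 gated and 262 ungated cells and gave 124 higher and 87 lower genes. These cells were chosen as low in the cycle genes, so the restricted test cannot show whether those genes differed. Of 21 tested cycle genes, 0 passed in edgeR (3 at an unadjusted p under 0.05), and Cenpf was at 0.19 (adjusted p = 0.89). Sox11, Ifitm1, Cd74 and Krt17 kept their calls there, at log2 values of 2.45, 2.60, 1.77 and 1.93, and 5 of 14 tested placode genes rose and 0 fell.

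Some differentiation genes were lower in gated basal cells. Of 25 tested suprabasal genes outside the rule, 8 fell, against 2.77% of all genes, 0 rose and 17 did not pass (median -0.58). The rule let more suprabasal RNA into the ungated cells, so this list is not independent of it. With the limit of 5 in both tables, 4 of 22 tested members fell and 1 rose (median -0.27), and in DESeq2 2 of 25 fell. Sfn, the 14-3-3 sigma gene, had 514 and 507 CPM in gated and 798 CPM in ungated cells (-0.58 ± 0.13), and Grhl3, a barrier transcription factor, 16.3 and 17.9 CPM in gated and 29.2 CPM in ungated cells (-0.69 ± 0.20, adjusted p = 0.011). Lgals3, the galectin-3 gene, named after its values were seen, had 0.723 and 0.276 CPM in gated cells, against 12.7 CPM in ungated cells (-4.63 ± 0.57). A gene this low in gated cells could pass the filter through the ungated sum alone, so it does not support the direction of the list. Of all genes tested, 2.77% fell and 4.23% rose. Of 19 tested secreted and surface genes of basal cells, 6 fell and 1 rose (2 and 0 in DESeq2). The falls included Anxa2 (1050.1 and 997 CPM in gated and 1423 CPM in ungated cells), Anxa8 (39.4 and 48.5 CPM in gated and 86.1 CPM in ungated cells) and S100a14 (20.98 and 23.1 CPM in gated and 41.3 CPM in ungated cells), calcium-dependent membrane or signalling proteins like Anxa1. The rise was the chemokine Cxcl14, with 2103 and 1881 CPM in gated and 1554 CPM in ungated cells.

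Adhesion and cytoskeleton genes rose in small numbers, to be read beside the 4.23% of all genes that rose and the 2.77% that fell. In the list of basement membrane genes and integrins, 25 were tested, of which 4 rose, against 4.23% of all genes, and 0 fell: the collagen IV chain Col4a2 (30.4 and 31.7 CPM in gated and 21.6 CPM in ungated cells), the proteoglycan perlecan, Hspg2 (29.7 and 30.03 CPM in gated and 20.8 CPM in ungated cells), Frem1, and the integrin activator Fermt1 (120.5 and 125 CPM in gated and 93.2 CPM in ungated cells). Frem1 is also counted in the placode list. With the suprabasal limit of 5 in both tables, 0 of 25 passed in edgeR (5 at an unadjusted p under 0.05), and 0 passed in DESeq2 (2 unadjusted). Cdh3, the P-cadherin of basal and placode cells, had 87.9 and 94.2 CPM in gated and 67.4 CPM in ungated cells (0.51 ± 0.14), and its partner β-catenin, Ctnnb1, 584 and 537 CPM in gated and 431 CPM in ungated cells (0.45 ± 0.13). They were the 2 rises among 18 tested cadherin and desmosome genes (0 calls in DESeq2, 3 unadjusted), and the desmosome protein Perp was the 1 fall (623 and 568 CPM in gated and 881 CPM in ungated cells; -0.50 ± 0.13). Of 21 tested actomyosin genes 3 rose and 0 fell, but 0 rose and 1 fell with the suprabasal limit of 5 in both tables, and 0 passed in DESeq2 (3 unadjusted). Those that rose included non-muscle myosin Myh10 (31.8 and 31.1 CPM in gated and 19.1 CPM in ungated cells) and vimentin, Vim (30.4 and 34.7 CPM in gated and 18.6 CPM in ungated cells). Of 5 tested appendage and simple keratins 2 rose, Krt17 and, at low level, Krt8 (5.06 and 4.13 CPM in gated and 0.648 CPM in ungated cells). A gene as low as Krt8 could pass the filter through the gated sums alone.

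The remaining lists had few calls, to be read beside the 4.23% of all genes that rose and the 2.77% that fell. Of 12 tested interferon response genes 3 rose and 0 fell (2 rose in DESeq2): Ifitm1, its paralog Ifitm3 (794 and 721 CPM in gated and 434 CPM in ungated cells; 0.87 ± 0.14) and the MHC class I light chain B2m (95.1 and 87.1 CPM in gated and 63.2 CPM in ungated cells; 0.59 ± 0.14). Of 24 tested glycolysis and hypoxia genes 4 fell and 0 rose (1 fell in DESeq2 and among cells with few late cycle UMIs). They included the aldolase Aldoa, at 480.4 and 582 CPM in gated and 858 CPM in ungated cells, the lactate dehydrogenase subunit Ldha at 620.3 and 657 CPM in gated and 932 CPM in ungated cells, and the stress-induced mTOR inhibitor Ddit4 at 55.7 and 63.1 CPM in gated and 89.6 CPM in ungated cells. Gapdh, the best known of the list, had 1878 and 2012 CPM in gated and 1891 CPM in ungated cells, with no consistent side. Of 17 dissociation stress genes 1 rose and 2 fell (0 and 1 with the suprabasal limit of 5 in both tables and in DESeq2). They were Jund, at 147 and 111 CPM in gated and 101 CPM in ungated cells, and Fos lower at 4.34 and 2.76 CPM in gated and 9.73 CPM in ungated cells, beside Hspb1. Of 13 cycle inhibitor and D-cyclin genes 1 fell, Ccnd3, with 133 and 128 CPM in gated and 186 CPM in ungated cells. With the suprabasal limit of 5 in both tables this call was lost.

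**Figure D4:**
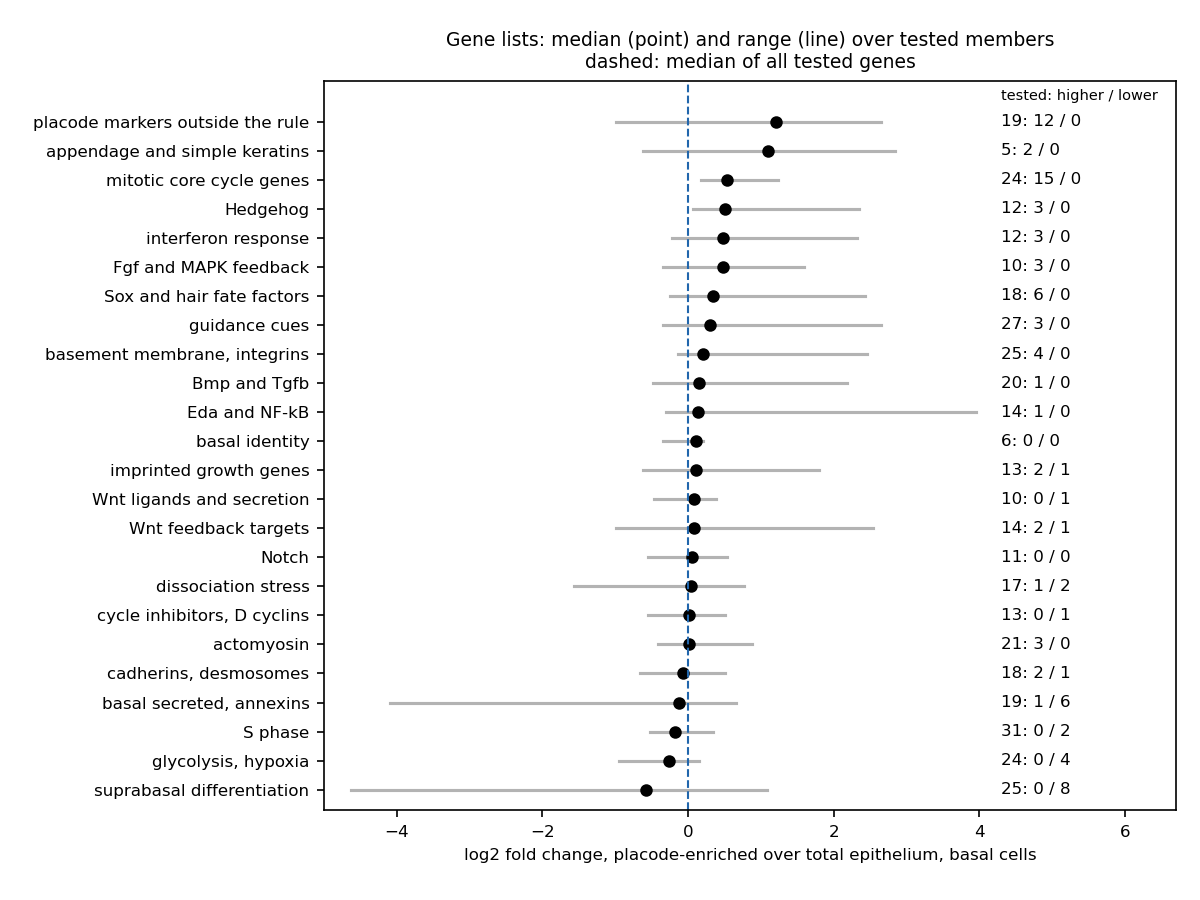
Log2 fold change of gated over ungated basal cells for the tested members of each gene list; points are medians, lines run from the lowest to the highest member and the dashed line is the median of all genes tested. Placode markers (median 1.21) and late cycle genes (0.54) lie above the dashed line and suprabasal genes (-0.58) below it; numbers give tested members, then those higher and lower.

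A fit of basal and placode cells together, with the library as a block, asked which genes differed more between gated and ungated libraries in basal than in placode cells. Proportional differences that both classes of a library share cancel in it. Of 11479 genes tested, 119 had a higher (1.04%) and 32 a lower (0.279%) gated-over-ungated change in basal cells, at an adjusted p under 0.05 in edgeR; without the block 4 were higher and 0 lower. The largest positive difference was in Pcsk2, a prohormone convertase, at 2.63 ± 0.26 (adjusted p = 4.5e-15). The gap lay in placode cells: Pcsk2 had 74.5 and 52.9 CPM in gated and 58.3 CPM in ungated basal cells, but 8.86 and 5.79 CPM in gated and 41.3 CPM in ungated placode cells. The imprinted gene Phlda2 (2.24 ± 0.37) had 48.8 and 42.4 CPM in gated and 44.2 CPM in ungated basal cells, and 4.70 and 3.05 CPM in gated and 17.7 CPM in ungated placode cells. Tle4, a Groucho-type corepressor, went the other way (-1.46 ± 0.35), with 8.68 and 7.99 CPM in gated and 8.92 CPM in ungated basal cells and 38.5 and 45.5 CPM in gated and 16.5 CPM in ungated placode cells.

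Several genes that rose in gated basal cells had a larger fold there than in placode cells. For Madcam1 the difference was 2.62 ± 0.41 (1.21, adjusted p = 0.71, with the suprabasal limit of 5 in both tables). It is only described, since its protein was the sorting antigen. The difference was 1.14 ± 0.21 for Cd74 (adjusted p = 5.2e-05) and 1.30 ± 0.32 for Sox11 (adjusted p = 0.0081). It was 1.15 ± 0.27 for Etv4 (adjusted p = 0.0043) and 0.75 ± 0.076 for Krt17 (adjusted p = 1.2e-14). Sox11 had 56.7 and 68.2 CPM in gated and 45.4 CPM in ungated placode cells, and Cd74 134 and 122 CPM in gated and 87.3 CPM in ungated placode cells, so that in CPM the gap was wider in placode than in basal cells for both. For Tubb2b (0.33, adjusted p = 0.68), Tuba1a (-0.034), Cenpf (-0.36, adjusted p = 0.31) and Mki67 (0.14, adjusted p = 0.85) the difference did not pass, so the rise in basal cells was not shown to differ from that in placode cells. Among the lower genes Dmkn had a positive difference (0.92 ± 0.092), since its gap was wider in placode cells, at 99.8 and 74.4 CPM in gated and 444 CPM in ungated placode cells. Gstp1 (0.22, adjusted p = 0.75) did not pass.

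**Figure D5:**
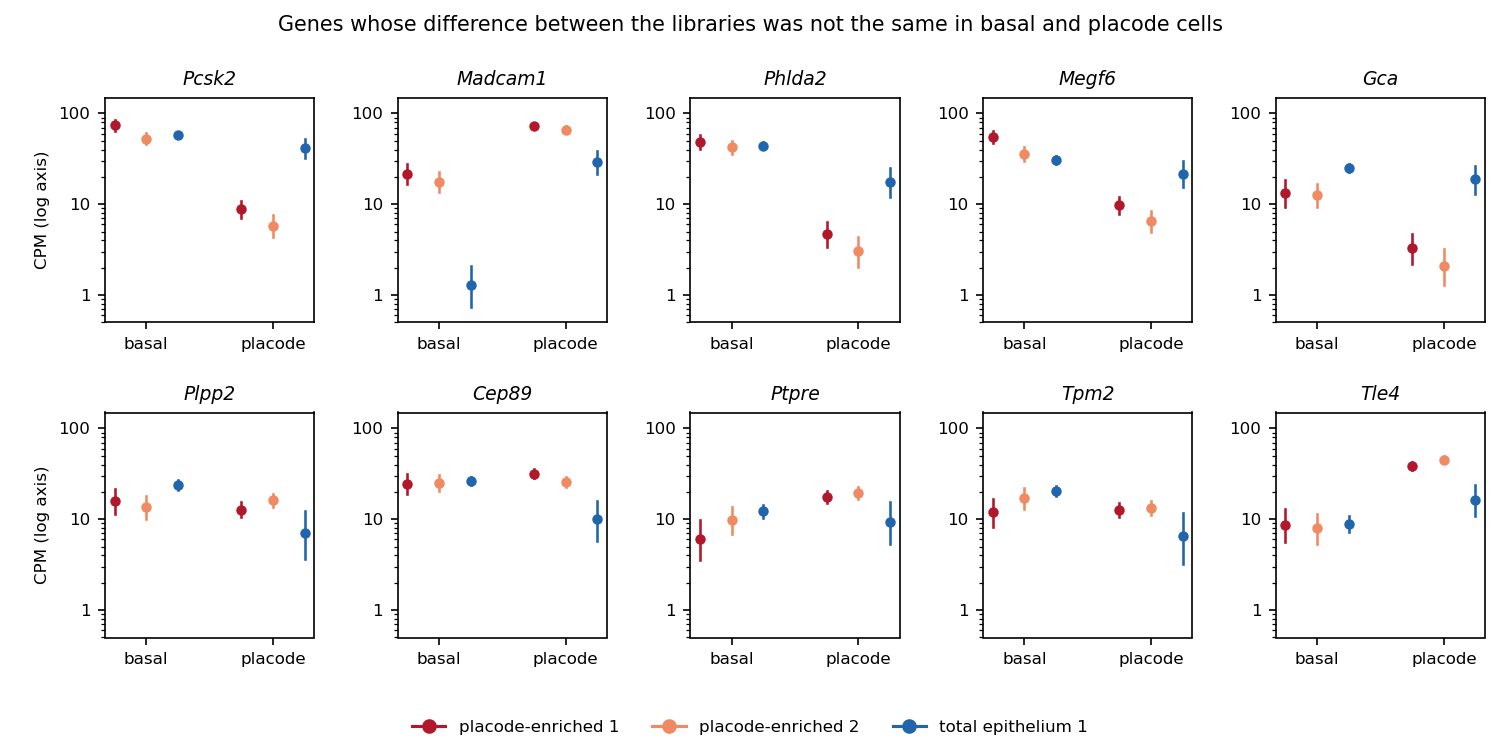
Level in CPM (log axis) of the 10 genes with the largest difference between the basal and the placode contrast, in basal and placode cells of placode-enriched libraries 1 and 2 and of total epithelium, with exact Poisson 95% intervals (counting error only). Pcsk2 has 74.5 and 52.9 CPM in placode-enriched and 58.3 CPM in total epithelium basal cells, and 8.86 and 5.79 CPM in placode-enriched and 41.3 CPM in total epithelium placode cells.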

How the data were processed

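Single-cell RNA was measured in 2 placode-enriched samples and 1 total epithelium sample, stated by the labels to be separate samples. P-values rest on a spread that edgeR shares across genes, and need not follow the spread of a single gene between samples. The authors deposited raw UMI counts per gene and cell; Cell Ranger, Seurat and mm10 are named per the submitters' processing notes, while annotation, strand setting and cell filters are steps not given in the sources used here. As for libraries, the number at the end of each barcode was taken as the library number in the shared placode table; if swapped, only the library names would change. The deposited tables held 15900 genes (placode-enriched) and 14959 genes (total epithelium), and the 14656 in both were used; 481 on X or Y, found by name in GENCODE M21, were left out of fits, and 97 had no chromosome.

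Everything else was computed here. No cell was removed, since the fewest genes in a cell were 2006 and the highest mitochondrial share was 4.98%; doublets were called with scrublet in scanpy 1.11.5 (expected rate 0.05) and left out only in an alternative. UMIs were summed per library over the cells of the rule, scaled to CPM over the genes in both tables, and tested in edgeR 4.0.16 (R 4.3.3; TMM, filterByExpr, quasi-likelihood test, Benjamini-Hochberg adjustment over all genes tested, threshold 0.05). The difference fit used 6 sums with the library as a block. Standard errors are the fold change over the square root of F, and are approximate. Poisson and binomial intervals are exact at 95% and cover counting error only. The scripts were tested on simulated data. The members and gene lists were chosen with earlier results of these data known. Named were the rule's genes and markers, the 12 higher and 12 lower called genes with the largest change at a mean of 10 CPM or more whose Poisson intervals did not overlap, at most 3 each way per list, and the 5 each way with the largest difference between the contrasts; others are said to be chosen after their values were seen. Alternatives were other scalings, DESeq2 1.42.0, no filter, other limits of the rule, doublets or deep cells left out, thinning to 10000 UMIs, X and Y genes kept, each placode-enriched library left out and, chosen after seeing the data, cells below 15 UMIs per 10000 of the late cycle list.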

Additional observations from a re-analysis of the deposited data

Results flagged for a closer look

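In 10 genes the gated-over-ungated change differed between basal and placode cells, by the test of that difference in the fit of both classes with the library as a block (edgeR quasi-likelihood test, Benjamini-Hochberg adjustment over 11479 genes; positive means a higher change in basal cells). Positive differences were 2.63 ± 0.26 (SE) for Pcsk2, 2.62 ± 0.41 for Madcam1, 2.24 ± 0.37 for Phlda2, 1.97 ± 0.32 for Megf6 and 1.87 ± 0.38 for Gca. Negative ones were -1.76 ± 0.40 for Plpp2, -1.58 ± 0.35 for Cep89, -1.56 ± 0.40 for Ptpre, -1.48 ± 0.42 for Tpm2 and -1.46 ± 0.35 for Tle4. Adjusted p ran from 4.5e-15 (Pcsk2) to 0.048 (Tpm2). Madcam1 encodes the sorting antigen, so its difference is only described.

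Megf6 had 55.3 and 35.8 CPM in gated and 31.05 CPM in ungated basal cells, against 9.85 and 6.53 CPM in gated and 21.8 CPM in ungated placode cells. Gca, the grancalcin gene, had 13.4 and 12.7 CPM in gated and 25.1 CPM in ungated basal cells, against 3.28 and 2.11 CPM in gated and 18.9 CPM in ungated placode cells. By these values Megf6 was higher and Gca lower in gated basal cells, and both were lower in gated placode cells. Such sides are read from the CPM values, and no call in basal cells alone is given for these genes. The phosphatase gene Ptpre had 6.15 and 9.92 CPM in gated and 12.3 CPM in ungated basal cells, against 17.7 and 19.5 CPM in gated and 9.44 CPM in ungated placode cells. Tropomyosin gene Tpm2 had 11.9 and 17.1 CPM in gated and 20.6 CPM in ungated basal cells, against 12.7 and 13.3 CPM in gated and 6.49 CPM in ungated placode cells. By these values both were lower in gated basal and higher in gated placode cells. Plpp2 had 15.9 and 13.5 CPM in gated and 23.9 CPM in ungated basal cells, against 12.8 and 16.2 CPM in gated and 7.08 CPM in ungated placode cells. Cep89 had 24.6 and 25.3 CPM in gated and 26.4 CPM in ungated basal cells, against 31.8 and 25.8 CPM in gated and 10.03 CPM in ungated placode cells. Most of these calls depended on the setting. Without the library block Pcsk2 and Madcam1 kept the call. With the suprabasal limit of 5 in both tables, which left 30 ungated placode cells, Pcsk2, Phlda2 and Megf6 kept it; Madcam1 was at 1.21 (adjusted p = 0.71), Gca at 0.91 (0.75), and the 5 negative differences were also not past the threshold. Among cells with few late cycle UMIs Madcam1 and Gca kept it, and Pcsk2 was at 1.42 (adjusted p = 0.18). With thinned cells Megf6 was at 1.10 (adjusted p = 0.74), and Plpp2, Ptpre, Tpm2 and Tle4 also missed the threshold.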

How the results depend on the processing

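Counts of genes past the threshold changed most with the test, DESeq2 on the same cells. They also depended on the cells more than on the scaling, and the cause was not tested. From 432 higher and 283 lower genes, they became 29 and 20 with DESeq2, 224 and 159 with the suprabasal limit of 5 in both tables, 271 and 168 with Krt15 of at least 12, 252 and 182 with Sostdc1 below 2, 217 and 129 with cells thinned to 10000 UMIs, and 124 and 87 with late cycle genes below 15, which leaves fewer cells. Other scalings, no filter, X and Y genes kept, doublets left out, and the other limits gave 345 to 497 higher and 220 to 291 lower. Changes of at least 2-fold, without a test, numbered 214 higher and 133 lower; with 1 placode-enriched library left out they were 243 to 260 higher and 226 to 232 lower. The share of cells meeting the rule was 4.50% and 6.05% of the placode-enriched libraries with a placode sum below 1, and 4.37% and 5.03% with Krt15 of at least 12. In total epithelium it was 28.4% after thinning, 6.50% with the suprabasal limit of 5 and 28.2% with a placode sum below 1. The summed log2 ratio of placode markers was 0.23, and 0.48 with late cycle genes below 15. For suprabasal genes it was -0.52, -0.30 with the limit of 5 and -0.66 with late cycle genes below 15; for replication genes it was -0.20, -0.22 and -0.055, and for the late cycle genes 0.54 in all cells. The planned limit of 2 on late cycle genes was not run, as it left 0 and 5 gated and 1 ungated basal cells. None of the 24 genes named for their change in basal cells, nor of the 10 named for the difference of the contrasts, changed direction under the alternatives run for them; other genes were not followed through all of these. Depth limits the low genes: Shh rested on 13 and 10 UMIs in gated and 9 in ungated cells.

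No paired analysis was possible because the groups of the basal contrast share fewer than 2 replicate numbers. The difference of the contrasts used the library as a block; without the replicate block it had 4 higher and 0 lower genes, against 119 and 32 with it. The other settings of that fit gave 38 and 4 after thinning, 73 and 10 with late cycle genes below 15, 37 and 20 with the suprabasal limit of 5, 14 lower with DESeq2 size factors, 56 lower without a filter and 17 lower with placode cells at a sum of 4 or more.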

Other observations

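Of 27 tested guidance genes (semaphorins, ephrins and others with their receptors), 3 rose, beside 4.23% of all genes tested, and 0 fell in edgeR, with a median of 0.30. Sema3d, a secreted semaphorin, had 15.9 and 18.7 CPM in gated and 10.9 CPM in ungated cells (0.74 ± 0.24, adjusted p = 0.031). The transmembrane Sema6a had 19.5 and 14.6 CPM in gated and 10.1 CPM in ungated cells (0.80 ± 0.25). The receptor Nrp2, also counted in the placode list, was the third. With the suprabasal limit of 5 in both tables, 0 of 25 passed in edgeR (1 at an unadjusted p under 0.05), and 0 of 27 passed in DESeq2 (1 unadjusted).

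Of 13 tested imprinted genes, 2 rose and 1 fell, beside 4.23% and 2.77% of all genes. Both rises were lost with the suprabasal limit of 5 in both tables, with thinned cells, among cells with few late cycle UMIs and in DESeq2, where 0 passed (2 at an unadjusted p under 0.05). The noncoding H19 had 464 and 572 CPM in gated and 776 CPM in ungated cells (-0.51 ± 0.13), below the ungated value in both gated libraries. Ndn, the necdin gene, had 20.6 and 14.1 CPM in gated and 9.65 CPM in ungated cells (0.89 ± 0.25). Meg3, a noncoding RNA named after its values were seen, had 7.96 and 3.86 CPM in gated and 1.70 CPM in ungated cells (1.80 ± 0.54, adjusted p = 0.021). A gene as low as Meg3 could pass the filter through the gated sums alone, so its call does not support a direction.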
